A study of Mus musculus with 12 samples.

Results

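The genes described here are the collagen chains and both discoidin domain receptors, cell-surface kinases that bind collagen. A gene was included where its symbol is Col, a number, the letter a and a number, as in Col1a1, or where it is Ddr1 or Ddr2. Of 18193 genes measured on the arrays, 44 met that rule. They were covered by 92 probe sets: 15 genes had 1 probe set and 29 had several, where the brightest on average over all 12 arrays stood for the gene. Col6a6 and Col28a1 were on the list but were not measured here. The rule used names and brightness only, not the genotype or the region of a sample.

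The arrays read RNA of granule cell progenitors, which divide on the surface of the young cerebellum and become its granule neurons, taken from mice on postnatal day 8. Part of the mice were wild type and the others carried SmoM2, an always active form of the hedgehog transducer Smoothened. In both genotypes the hemispheres at the sides of the cerebellum were kept apart from the vermis in the middle. The SmoM2 mice were Atoh1-CreER/+ and R26LSL-SmoM2-YFP: a Cre recombinase that needs tamoxifen, expressed under Atoh1 control, opened a SmoM2-YFP allele at Rosa26 after a dose of 200 µg tamoxifen per g on postnatal day 2. The strain background was a mix of C57BL/6 and Swiss Webster throughout, each array held cells of 5 pooled mice isolated on a Percoll gradient, and there were 3 arrays for each of the 4 combinations of genotype and region. The sources used here do not say whether tamoxifen was also given to wild type mice. The allele was opened only in cells that used Atoh1 around the time of the injection, and a gradient enriches cells by density, so other cells of the cerebellum can be present.

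Collagens are proteins of 3 wound chains that form most of the solid framework between cells. Fibrillar collagens build rope-like fibrils, FACIT collagens (fibril-associated collagens with interrupted triple helices) sit on the surface of fibrils, type IV collagens form the sheet of basement membranes, and some collagens span the cell membrane. In the brain most collagen lies in the meninges, in the walls of blood vessels and in the pial basement membrane on which granule cell progenitors rest. Ddr1 and Ddr2 are receptor tyrosine kinases that are switched on by the collagen triple helix itself.

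Values are log2 expression, so that a difference of 1 is a doubling of signal. On these arrays the lower quartile of all probe sets, controls included, lay at 3.24 to 3.42. Their median lay at 4.81 to 4.87 and their upper quartile at 6.9 to 7.1. Of the 44 genes, 11 were above the upper quartile on all 12 arrays (Col1a2, Col3a1, Col4a1, Col4a5, Col5a2, Col6a2, Col9a1, Col9a3, Col11a1, Col18a1 and Ddr1), and 3 were under the lower quartile on all of them (Col6a5, Col17a1 and Col24a1). These places describe signal only, since probe sets differ in how strongly they bind, and no gene's level is set against another's. All 10 granule cell progenitor markers were measured, and their log2 values summed to 97.6 to 102.1 on every array. Atoh1, the defining transcription factor of these cells, read 7.75 to 8.27 in wild type and 8.65 to 9.10 in SmoM2, and Gli1, a direct target of hedgehog signalling, read 6.83 to 7.41 in wild type and 8.55 to 8.88 in SmoM2. Between genotypes 4 of the 10 markers were higher and 4 lower in SmoM2 hemisphere, and 4 higher and 3 lower in SmoM2 vermis, with Neurod1 (12.87 to 13.09 in wild type, 12.08 to 12.23 in SmoM2), Pax6 and Mfap4 lower in both. The wild type hemisphere arrays stood apart in the quality controls: the 3' minus 5' difference of Actb was 0.46 to 0.79 there and 0.88 to 1.1 in the other groups, and the mean of the dap labelling spikes was 7.77 to 9.5 there and 9.77 to 11 elsewhere. The part of either control in the hemisphere results was not tested. In the vermis the Actb ranges of wild type (0.88 to 0.9) and SmoM2 (0.89 to 1.07) overlapped.

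The SmoM2 samples read higher than wild type for a set of collagens led by Col27a1, Col9a3 and Col11a1 and for the receptor Ddr2, and lower for others, and both sets held fibrillar and FACIT chains. The share of higher genes was above that of all genes in both regions, while the share of lower genes (9.09% in the hemisphere, 13.6% in the vermis) was less far above it. In the hemisphere 15 of the 44 genes (34.1%) passed at an adjusted p under 0.05, against 14.8% of all genes. There 11 were higher in SmoM2 (background 7.62% of all genes): Col3a1, Col4a1, Col4a5, Col5a2, Col6a3, Col9a2, Col9a3, Col11a1, Col15a1, Col27a1 and Ddr2. The other 4 were lower (background 7.18%): Col11a2, Col16a1, Col20a1 and Col25a1. In the vermis 13 of 44 (29.5%) passed, against 17.0% of all genes. Of these, 7 were higher (background 7.56%): Col9a1, Col9a2, Col9a3, Col11a1, Col15a1, Col27a1 and Ddr2. The 6 lower genes (background 9.46%) were Col1a2, Col10a1, Col11a2, Col16a1, Col20a1 and Col25a1.

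The regions shared 10 of these calls, with 6 genes higher in both (Col9a2, Col9a3, Col11a1, Col15a1, Col27a1 and Ddr2) and 4 lower in both (Col11a2, Col16a1, Col20a1 and, on its brightest probe set, Col25a1, whose other probe set went the opposite way). The median difference over the 44 genes was 0.11 in the hemisphere and 0.04 in the vermis, against -0.05 and -0.06 over all genes. The 3 SmoM2 and the 3 wild type arrays did not overlap for 22 of the 44 genes (50.0%) in the hemisphere, against 31.7% of all genes, and for 22 (50.0%) in the vermis, against 39.8%. Of the 15 hemisphere calls, 10 held under every alternative processing in which they were tested and without each array in turn (Col3a1, Col5a2, Col9a2, Col9a3, Col11a1, Col11a2, Col15a1, Col16a1, Col27a1 and Ddr2). In the vermis 6 of 13 held (Col9a1, Col9a2, Col9a3, Col11a1, Col27a1 and Ddr2). The counts of lower genes rested on few arrays. In the vermis 0 such genes passed without wild type vermis replicate 3. That count was 1 or 2 without SmoM2 vermis replicate 1 or 2, in that order, and 3 if either wild type vermis replicate 2 or SmoM2 vermis replicate 3 was left out. For the hemisphere 2 such genes passed without SmoM2 hemisphere replicate 1 or 3.

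**Figure D1:**
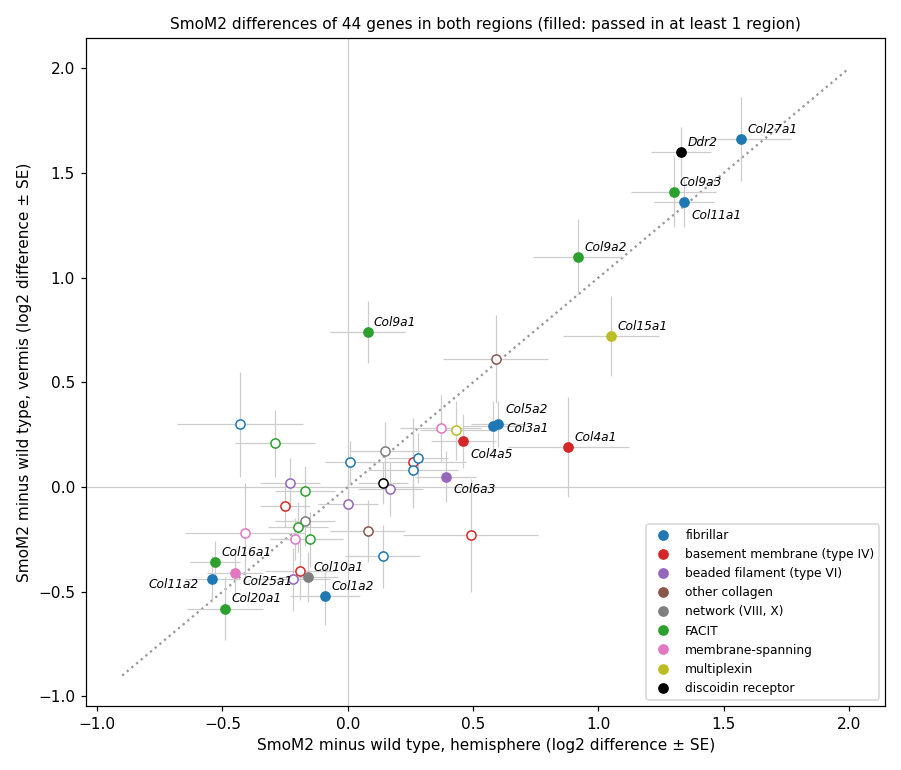
SmoM2 minus wild type in the hemisphere (horizontal axis) against the vermis (vertical axis), in log2 units with bars of 1 standard error, for each of the 44 genes coloured by class; filled points passed in at least 1 region and the dotted line marks equal differences. Col27a1, Ddr2, Col9a3 and Col11a1 lie at the upper right with differences from 1.30 to 1.66, while Col9a1 (0.08 and 0.74) and Col4a1 (0.88 and 0.19) lie away from the line.

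Ddr2, which binds fibrillar collagens, was higher in SmoM2. Its log2 values on the 3 arrays were 7.32, 7.16 and 6.90 in wild type hemisphere and 8.55, 8.34 and 8.48 in SmoM2 hemisphere, and 6.42, 6.62 and 6.27 in wild type vermis against 8.04, 8.06 and 8.02 in SmoM2 vermis. Every SmoM2 array was above every wild type array, whatever the region. The difference was 1.33 (SE 0.12, 2.52-fold, adjusted p = 4.73e-06) in the hemisphere and 1.6 (SE 0.12, 3.04-fold, adjusted p = 8.62e-07) in the vermis. Ddr1, the receptor of epithelia and glia, read 10.25, 10.12 and 10.40 in wild type hemisphere against 10.37, 10.37 and 10.44 in SmoM2 hemisphere, and 10.40, 10.36 and 10.45 in wild type vermis against 10.44, 10.46 and 10.38 in SmoM2 vermis. Its groups overlapped in both regions, with differences of 0.14 (SE 0.10, adjusted p = 0.356) and 0.02 (SE 0.10, adjusted p = 0.888). Of its 8 probe sets, tested among all probe sets, 0 passed in the hemisphere and 1 in the vermis: the dimmer 1459990_at read 5.38, 5.53 and 5.49 in wild type vermis against 4.9, 4.8 and 5.3 in SmoM2 vermis, a difference of -0.46 (SE 0.14, adjusted p = 0.0425).

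A second Ddr2 probe set, 1422738_at, gave smaller differences. It read 5.92, 6.25 and 6.43 in wild type hemisphere against 6.51, 6.91 and 6.77 in SmoM2 hemisphere, and 6.06, 6.05 and 5.87 in wild type vermis against 6.33, 6.36 and 6.60 in SmoM2 vermis. Tested among all probe sets, its difference was 0.53 (SE 0.14, adjusted p = 0.0306) in the hemisphere and 0.44 (SE 0.14, adjusted p = 0.0649) in the vermis, so both probe sets were higher in SmoM2 and the size depended on which was read.

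Upstream sequence is shown for 4 of the genes that were higher in SmoM2 in both regions (Col11a1, Col27a1, Col9a2 and Ddr2), because they moved together and their starts can be set side by side. The window of Col15a1, also higher in both regions, had 53.6% G and C and held none of the motifs searched, and for Col9a3 there was no entry. Each line holds the 250 bases before a start listed for the gene in RefSeq on build GRCm38.p6, 5′ to 3′ on the strand of the gene. Whether these cells begin the transcript at that start was not tested for any of them, Ddr2 included, so a window need not be the promoter in use. The windows lie at chr3:114030290-114030539 (plus strand), chr4:63215162-63215411 (plus), chr4:121039316-121039565 (plus) and chr1:170088945-170089194 (minus), in the order of the lines. Capitals mark the motifs searched on both strands.
Col11a1: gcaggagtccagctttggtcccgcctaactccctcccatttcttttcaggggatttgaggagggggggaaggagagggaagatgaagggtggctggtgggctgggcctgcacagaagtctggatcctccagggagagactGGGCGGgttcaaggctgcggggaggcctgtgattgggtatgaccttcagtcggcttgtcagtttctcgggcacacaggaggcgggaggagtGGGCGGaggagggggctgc
Col27a1: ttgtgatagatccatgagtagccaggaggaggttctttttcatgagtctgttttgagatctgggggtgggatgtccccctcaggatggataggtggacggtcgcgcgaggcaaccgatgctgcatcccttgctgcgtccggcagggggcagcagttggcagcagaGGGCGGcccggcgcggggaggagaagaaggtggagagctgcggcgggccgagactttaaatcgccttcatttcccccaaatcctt
Col9a2: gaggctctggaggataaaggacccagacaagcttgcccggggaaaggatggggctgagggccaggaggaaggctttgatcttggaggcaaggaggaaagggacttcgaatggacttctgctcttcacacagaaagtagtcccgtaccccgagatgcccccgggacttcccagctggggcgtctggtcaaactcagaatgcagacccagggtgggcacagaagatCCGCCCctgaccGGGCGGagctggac
Ddr2: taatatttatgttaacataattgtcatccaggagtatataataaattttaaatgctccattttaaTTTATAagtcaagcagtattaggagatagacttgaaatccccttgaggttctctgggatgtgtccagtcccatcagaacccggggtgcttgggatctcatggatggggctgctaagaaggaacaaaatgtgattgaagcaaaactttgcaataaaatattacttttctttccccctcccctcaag
The GLI motif searched was GACCACCCA. The SOX motif was AACAAAG. The GC box was GGGCGG. The TATA box was TATAAA, and none of the 4 motifs contains another of them. The capitals in Col11a1, Col27a1 and Col9a2 are GC boxes, whose first base lies 110 and 19 bases before the start in Col11a1, 85 bases in Col27a1, and 26 and 14 bases in Col9a2. In Ddr2 the capitals are a TATA box on the opposite strand 185 bases before the start. The window of Col11a2, which was lower in SmoM2 in both regions, also held GC boxes, 133 and 38 bases before the start. It held a TATA box 143 bases before the start. The Ddr2 window held 37.6% G and C, against 62.4% in Col11a1, 59.6% in Col27a1 and 60.4% in Col9a2, and a median of 52.4% over the windows of all genes. Entries were found for 35 of the 44 genes, with 41 windows. The GC box was in 24 of these 41 windows (58.5%) and in 32.7% of all 32851 windows, the TATA box in 6 (14.6%) against 12.4%, the SOX site in 2 (4.88%) against 5.03%, and the exact GLI letters in 0 against 0.225%.

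Among the 11 fibrillar collagens, 4 were higher and 1 was lower in SmoM2 hemisphere, and 2 were higher and 2 lower in SmoM2 vermis. Of all genes 7.62% were higher and 7.18% lower in the hemisphere, against 7.56% and 9.46% for the vermis. In a class or list of about 10 genes a count of 1 is thus near background, and a count of 2 is above it but rests on few genes. Col27a1, a fibrillar collagen of cartilage with a shortened helix, read 5.80, 6.49 and 6.61 in wild type hemisphere against 8.12, 7.95 and 7.54 in SmoM2 hemisphere, and 6.11, 6.38 and 6.22 in wild type vermis against 7.80, 8.10 and 7.80 in SmoM2 vermis. The lowest SmoM2 array was above the highest wild type array in both regions. Its differences, 1.57 (SE 0.20, 2.97-fold, adjusted p = 8.74e-05) and 1.66 (SE 0.20, 3.17-fold, adjusted p = 4.8e-05), were the largest of the 44 genes in each region. A second Col27a1 probe set, 1429549_at, read 4.31 to 4.57 in wild type hemisphere and 6.45 to 6.79 in SmoM2 hemisphere, and 4.63 to 4.8 in wild type vermis and 6.71 to 6.91 in SmoM2 vermis, a difference of 2.11 in each region.

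Col11a1, which helps to start fibrils in cartilage, read 7.99, 7.66 and 7.75 in wild type hemisphere against 9.12, 9.26 and 9.04 in SmoM2 hemisphere, and 8.06, 8.09 and 8.08 in wild type vermis against 9.20, 9.58 and 9.52 in SmoM2 vermis. The groups were far apart relative to the spread within each, which was at most 0.20 (SD, n = 3). The difference was 1.34 (SE 0.12, 2.53-fold, adjusted p = 4.07e-06) in the hemisphere and 1.36 (SE 0.12, 2.56-fold, adjusted p = 3.74e-06) in the vermis. Its partner chain Col11a2 went the other way, with values of 4.24, 4.59 and 4.54 in wild type hemisphere against 3.88, 3.82 and 4.04 in SmoM2 hemisphere, and 4.34, 4.19 and 4.30 in wild type vermis against 3.78, 3.93 and 3.81 in SmoM2 vermis. All 6 SmoM2 arrays were below all 6 wild type arrays, and all 12 values were below the median probe set of their array. Col11a2 fell by 0.54 (SE 0.11, adjusted p = 0.00512) in the hemisphere and by 0.44 (SE 0.11, adjusted p = 0.0174) in the vermis. The vermis call was lost without SmoM2 vermis replicate 1 (adjusted p = 0.0676), SmoM2 vermis replicate 3 (0.0536) or wild type vermis replicate 3 (0.0548), within a range of 0.007 to 0.0676 over its alternatives.

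Col3a1 and Col5a2, chains of collagens III and V that share fibrils with collagen I in soft tissue, passed in the hemisphere, and in the vermis the call depended on the probe set or the processing. Col3a1 read 10.41, 10.14 and 10.53 in wild type hemisphere and 10.79, 10.98 and 11.07 in SmoM2 hemisphere, and Col5a2 read 8.59, 8.40 and 8.30 against 8.96, 9 and 9.13. Neither gene overlapped between the genotypes there. The differences were 0.58 (SE 0.12, adjusted p = 0.00613) for Col3a1 and 0.60 (SE 0.11, adjusted p = 0.00153) for Col5a2. In the vermis Col3a1 read 10.65, 10.59 and 10.44 in wild type and 10.74, 10.80 and 11 in SmoM2, a difference of 0.29 (SE 0.12, adjusted p = 0.123), and Col5a2 read 8.68, 8.67 and 8.47 against 8.87, 8.97 and 8.89, a difference of 0.30 (SE 0.11, adjusted p = 0.0643). The vermis arrays did not overlap either, and the interaction was 0.30 for each gene (adjusted p = 1.0). The vermis difference of Col5a2 passed when wild type hemisphere replicate 1 (adjusted p = 0.0438) or 3 (0.0487) was left out, arrays that enter that comparison only through the shared spread. With the mean of all probe sets both genes passed in the vermis, at 0.45 for Col3a1 (adjusted p = 0.0375) and 0.35 for Col5a2 (adjusted p = 0.0439). The second Col3a1 probe set, 1427884_at, read 7.39, 7.28 and 6.86 in wild type vermis against 7.69, 7.77 and 7.89 in SmoM2 vermis and passed among all probe sets (0.61, SE 0.16, adjusted p = 0.0304).

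The chains of collagen I, the main collagen of meninges and connective tissue, were not among the genes that passed as higher. Col1a2 read 9.92, 9.58 and 10.17 in wild type hemisphere against 9.62, 9.83 and 9.95 in SmoM2 hemisphere, and 10.55, 10.26 and 10.41 in wild type vermis against 9.87, 9.79 and 10.01 in SmoM2 vermis. The hemisphere groups overlapped, with a difference of -0.09 (SE 0.14, adjusted p = 0.701), while the SmoM2 vermis arrays were all below the wild type ones. In the vermis Col1a2 fell by 0.52 (SE 0.14, 1.43-fold, adjusted p = 0.0262), a call that was lost without wild type vermis replicate 1 (0.0715) or 3 (0.0689) or SmoM2 vermis replicate 1 (0.0778) or 2 (0.0979), with 0.00888 to 0.0979 over all its alternatives. Col1a1 read 7.37, 7.22 and 7.33 in wild type vermis against 7.09, 6.75 and 7.10 in SmoM2 vermis, a difference of -0.33 (SE 0.15, adjusted p = 0.151), and in the hemisphere the difference was 0.14 (SE 0.15, adjusted p = 0.541). The remaining fibrillar genes did not pass in either region: Col2a1 (-0.43 and 0.30), Col5a1 (0.28 and 0.14), Col5a3 (0.26 and 0.08) and Col24a1 (0.01 and 0.12).

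Collagen IX, a FACIT collagen built of 3 chains that decorates fibrils in cartilage and in the eye, was higher in SmoM2 for Col9a2 and Col9a3 in both regions. Col9a3 read 8.18, 7.52 and 8.17 in wild type hemisphere against 9.03, 9.55 and 9.19 in SmoM2 hemisphere, and 7.79, 8.05 and 7.93 in wild type vermis against 9.21, 9.33 and 9.45 in SmoM2 vermis. No wild type array reached the lowest SmoM2 array. The difference was 1.30 (SE 0.17, 2.47-fold, adjusted p = 0.000159) in the hemisphere and 1.41 (SE 0.17, 2.66-fold, adjusted p = 7.42e-05) in the vermis. Col9a2, nearer to the median of the arrays, read 4.21, 3.73 and 4.42 in wild type hemisphere against 4.92, 5.29 and 4.90 in SmoM2 hemisphere, and 4.15, 4.01 and 4.46 in wild type vermis against 5.14, 5.58 and 5.20 in SmoM2 vermis. These groups did not overlap either, with differences of 0.92 (SE 0.18, 1.89-fold, adjusted p = 0.00403) and 1.10 (SE 0.18, 2.15-fold, adjusted p = 0.000989).

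The first chain of the same collagen showed a different pattern over the groups on its brightest probe set. Col9a1 read 8.84, 8.96 and 8.93 in wild type hemisphere against 9.04, 9.14 and 8.80 in SmoM2 hemisphere, and 8.03, 8.70 and 8.46 in wild type vermis against 9.21, 9.23 and 8.97 in SmoM2 vermis. The wild type vermis arrays were the lowest, all other groups lay between 8.80 and 9.23, and the hemisphere genotypes overlapped. The genotype difference was 0.08 (SE 0.15, adjusted p = 0.735) in the hemisphere and 0.74 (SE 0.15, 1.67-fold, adjusted p = 0.00438) in the vermis. The test of the difference between both effects gave -0.66 (SE 0.21, unadjusted p = 0.00821, adjusted p = 1.0), so it did not pass. A second Col9a1 probe set, 1421381_a_at, did not pass in the vermis among all probe sets. It read 6.50, 7.02 and 6.53 in wild type vermis against 7.05, 7.17 and 6.91 in SmoM2 vermis, so these groups overlapped. In the hemisphere it read 6.81 to 7.01 in wild type and 6.72 to 7.11 in SmoM2. On that probe set the wild type vermis was not set apart.

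Of the other 6 FACIT genes, Col16a1 and Col20a1 were lower in SmoM2. Col16a1 read 6.17, 6.42 and 6.25 in wild type hemisphere against 5.78, 5.73 and 5.73 in SmoM2 hemisphere, and 6.34, 6.06 and 6.29 in wild type vermis against 5.83, 5.85 and 5.92 in SmoM2 vermis. All SmoM2 arrays were below all wild type arrays. It fell by 0.53 (SE 0.10, adjusted p = 0.00329) in the hemisphere and by 0.36 (SE 0.10, adjusted p = 0.0297) in the vermis. Without wild type vermis replicate 1 (0.0822) or 3 (0.0964), or SmoM2 vermis replicate 1 (0.0947), 2 (0.0891) or 3 (0.0534), Col16a1 did not pass in the vermis, and its adjusted p ran from 0.0139 to 0.0964 over all alternatives.

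Col20a1 read 4.45, 5.12 and 4.60 in wild type hemisphere against 4.19, 4.24 and 4.28 in SmoM2 hemisphere, and 4.74, 4.86 and 4.95 in wild type vermis against 4.10, 4.33 and 4.39 in SmoM2 vermis. The groups did not overlap in either region, and wild type hemisphere replicate 2 was the highest of all arrays. Col20a1 fell by 0.49 (SE 0.15, adjusted p = 0.0416) in the hemisphere, and by 0.29 (adjusted p = 0.148) without that array. The hemisphere call was also lost without SmoM2 hemisphere replicate 1 (0.119), 2 (0.0908) or 3 (0.086), wild type vermis replicate 2 (0.0523) or SmoM2 vermis replicate 2 (0.0559) or 3 (0.051), the range over all alternatives being 0.00922 to 0.148. Quantile normalization again (0.0514) or only the groups compared (0.0965) lost it too. In the vermis Col20a1 fell by 0.58 (SE 0.15, adjusted p = 0.0172), a call lost without SmoM2 vermis replicate 1 (0.0785) or wild type vermis replicate 2 (0.0524) or 3 (0.0643), with 0.00249 to 0.0785 over the alternatives. On another Col20a1 probe set, 1430855_at, the hemisphere groups overlapped (4.4, 4.46 and 4.64 in wild type, 4.27, 4.49 and 4.13 in SmoM2) and the vermis groups did not. The FACIT genes Col12a1 (-0.17 and -0.02), Col14a1 (-0.29 and 0.21), Col19a1 (-0.15 and -0.25) and Col22a1 (-0.20 and -0.19) did not pass in the hemisphere or in the vermis.

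**Figure D2:**
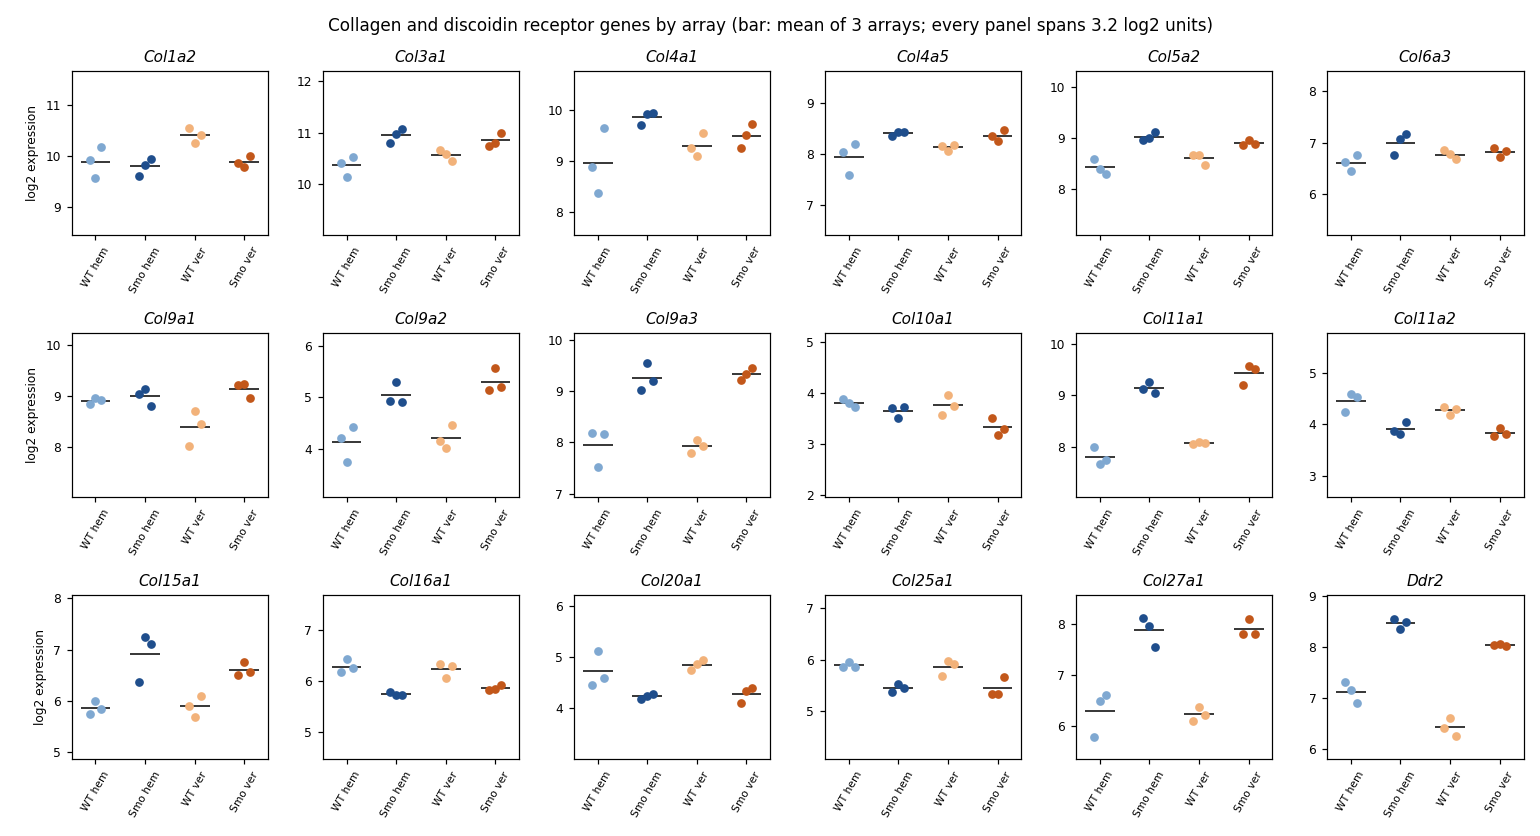
Log2 expression on each of the 12 arrays for the 18 genes that passed in at least 1 comparison, 1 panel per gene; points are arrays, bars are means of 3 arrays, WT is wild type, Smo is SmoM2, hem is hemisphere and ver is vermis. Each panel spans the same range of log2 units, so the gap between genotypes can be compared by eye: it is wide for Ddr2, Col11a1, Col27a1 and Col9a3 in both regions, and for Col9a1 the hemisphere groups overlap while the vermis groups do not.

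Type IV chains form the sheet of basement membranes, around vessels and under the pia. Of 6 measured chains, Col4a1 and Col4a5 passed as higher in SmoM2 hemisphere and 0 passed in the vermis. Col4a1 read 8.88, 8.38 and 9.65 in wild type hemisphere against 9.71, 9.91 and 9.94 in SmoM2 hemisphere, and 9.25, 9.10 and 9.54 in wild type vermis against 9.25, 9.5 and 9.72 in SmoM2 vermis. In the hemisphere the SmoM2 arrays were all above wild type, although replicate 3 of the wild type (9.65) came close to the lowest of them (9.71), and in the vermis the groups overlapped. Col4a1 was higher by 0.88 (SE 0.24, 1.85-fold, adjusted p = 0.0234) in the hemisphere and differed by 0.19 (SE 0.24, adjusted p = 0.598) in the vermis. The hemisphere call was lost without wild type hemisphere replicate 2 (0.59, adjusted p = 0.0961), SmoM2 hemisphere replicate 2 (0.0675) or SmoM2 hemisphere replicate 3 (0.0763). It was also lost with the mean of the probe sets (0.79, adjusted p = 0.0516) or with only the groups compared (0.0573). Its adjusted p ran from 0.000603 to 0.0961 over the alternatives. A second Col4a1 probe set, 1426348_at, overlapped in the hemisphere, reading 6.46, 5.75 and 7.26 in wild type against 6.93, 7.26 and 7.36 in SmoM2.

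Col4a2, the chain that pairs with Col4a1 in the same protein, read 7.18, 6.71 and 8.17 in wild type hemisphere against 7.66, 7.92 and 7.96 in SmoM2 hemisphere, and 7.75, 7.48 and 7.87 in wild type vermis against 7.19, 7.54 and 7.68 in SmoM2 vermis. Wild type hemisphere replicate 3 was the highest array of all, and the groups overlapped in both regions. The differences were 0.49 (SE 0.27, adjusted p = 0.225) and -0.23 (SE 0.27, adjusted p = 0.563). Without wild type hemisphere replicate 3 the hemisphere difference of Col4a2 was 0.90 (adjusted p = 0.00523), so for both chains the hemisphere result turned on that group's spread, which was 0.64 for Col4a1 and 0.74 for Col4a2 (SD, n = 3). The order of the 3 arrays was the same for Col4a1 and Col4a2 within each of the 4 groups. Their RefSeq starts on GRCm38.p6 lie 21 bases apart on opposite strands of chromosome 8. Col4a5 and Col4a6, whose starts lie 1343 bases apart on opposite strands of chromosome X, shared their array order in 1 of 4 groups.

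Within the wild type hemisphere group, the array highest for Col4a1 and Col4a2 was also the highest for markers of vessel cells. The mean of 10 pericyte and smooth muscle markers there was 6.24, 6.19 and 6.78 on the 3 arrays, and the mean of 10 endothelial markers was 5.68, 5.80 and 6.38, so replicate 3 was the highest for both lists, while replicates 1 and 2 had the order of Col4a1 in the pericyte list and not in the endothelial list. The array order of Col4a1 was that of the pericyte mean in 3 of 4 groups and that of the endothelial mean in 1 of 4. Col3a1, a fibrillar chain, also had the pericyte order in 3 of 4 groups, so such a match was not particular to type IV chains. Between genotypes both lists overlapped in the hemisphere: the summed log2 values of the endothelial markers were 56.8 to 63.8 in wild type hemisphere and 58.0 to 59.5 in SmoM2 hemisphere, and those of the pericyte markers 61.9 to 67.8 and 61.3 to 65.1. The part of vessel cells in the type IV result was not tested.

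**Figure D3:**
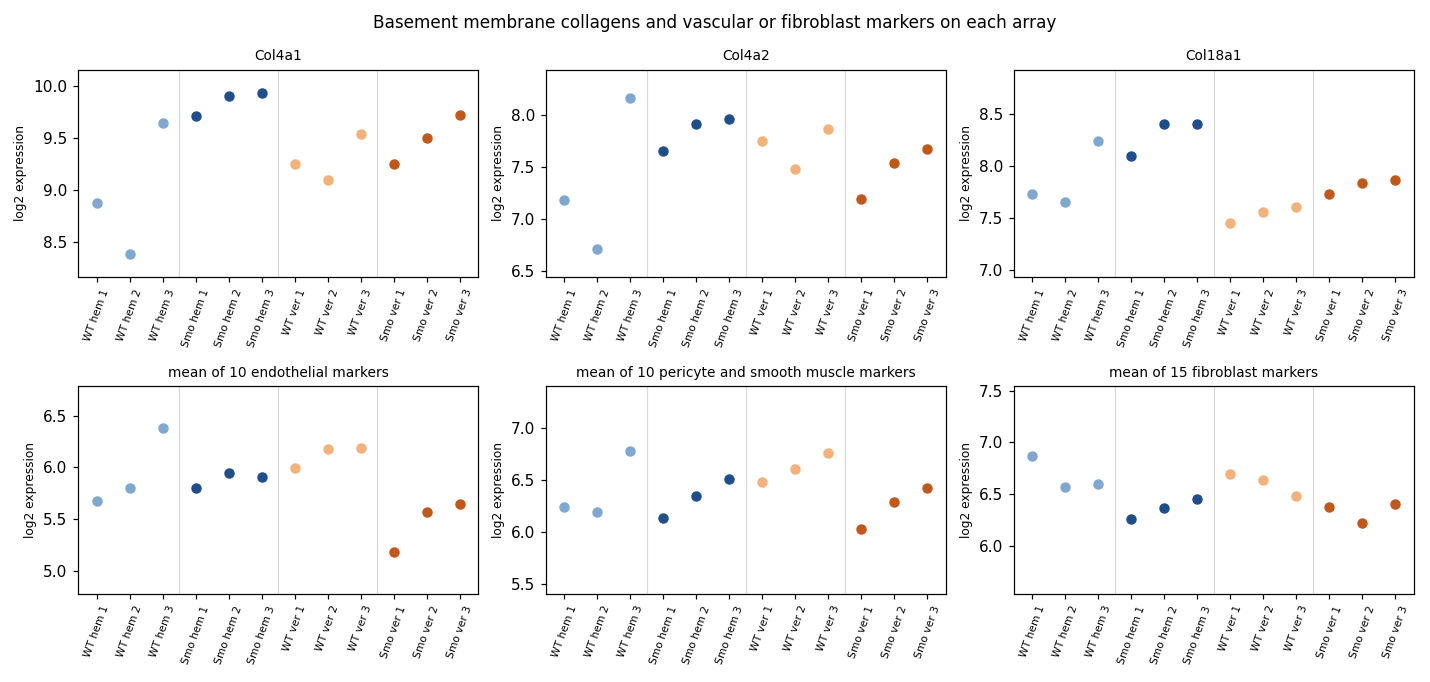
Log2 expression of Col4a1, Col4a2 and Col18a1 and the mean log2 value of the endothelial, pericyte and smooth muscle, and fibroblast markers on each of the 12 arrays, labelled by group and replicate (WT wild type, Smo SmoM2, hem hemisphere, ver vermis); each point is 1 array. Wild type hemisphere replicate 3 is the highest of its group for the 3 collagens (9.65, 8.17 and 8.24) and for the endothelial and pericyte means (6.38 and 6.78), but not for the fibroblast mean (6.60).

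Col4a5 read 8.04, 7.59 and 8.2 in wild type hemisphere against 8.36, 8.43 and 8.44 in SmoM2 hemisphere, and 8.16, 8.06 and 8.18 in wild type vermis against 8.35, 8.25 and 8.46 in SmoM2 vermis. The genotypes did not overlap in either region, and wild type hemisphere replicate 2 was the lowest array. The difference was 0.46 (SE 0.13, adjusted p = 0.033) in the hemisphere and 0.22 (SE 0.13, adjusted p = 0.272) in the vermis. The hemisphere call of Col4a5 was lost without wild type hemisphere replicate 2 (0.116) or SmoM2 hemisphere replicate 1 (0.071), 2 (0.0815) or 3 (0.0957), with 0.00957 to 0.116 over its alternatives. The chains Col4a3 (-0.19 and -0.40), Col4a4 (0.26 and 0.12) and Col4a6 (-0.25 and -0.09) did not pass on their brightest probe sets. With the mean of its probe sets Col4a6 passed as lower in SmoM2 hemisphere (-0.43, adjusted p = 0.0276). Its dimmer probe set, 1421006_at, read 4.38, 4.5 and 4.92 in wild type hemisphere against 4.1, 3.77 and 4.08 in SmoM2 hemisphere. Tested among all probe sets, that probe set did not pass. Col4a3 and Col4a4 were under the lower quartile of probe sets on 1 and 2 arrays.

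Col15a1 and Col18a1 encode multiplexins, proteoglycan-like collagens of the basement membrane zone. Col15a1 read 5.74, 5.99 and 5.84 in wild type hemisphere against 6.36, 7.25 and 7.12 in SmoM2 hemisphere, and 5.90, 5.68 and 6.10 in wild type vermis against 6.51, 6.76 and 6.57 in SmoM2 vermis. All SmoM2 arrays were above all wild type arrays, with the largest spread in SmoM2 hemisphere (SD 0.48, n = 3). The difference was 1.05 (SE 0.19, 2.07-fold, adjusted p = 0.00194) in the hemisphere and 0.72 (SE 0.19, 1.65-fold, adjusted p = 0.0198) in the vermis, where it was lost without SmoM2 vermis replicate 2 (0.0801) or wild type vermis replicate 2 (0.0837), within 0.00195 to 0.0837 over the alternatives. Its array order was that of the pericyte mean in 0 of 4 groups and of the endothelial mean in 1 of 4.

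Col18a1, the source of the fragment endostatin, read 7.73, 7.65 and 8.24 in wild type hemisphere against 8.09, 8.40 and 8.40 in SmoM2 hemisphere, and 7.45, 7.55 and 7.6 in wild type vermis against 7.73, 7.83 and 7.86 in SmoM2 vermis. The hemisphere genotypes overlapped through wild type hemisphere replicate 3, and the vermis genotypes did not overlap. The differences were 0.43 (SE 0.14, adjusted p = 0.0593) and 0.27 (SE 0.14, adjusted p = 0.195). Without wild type hemisphere replicate 3 the hemisphere difference was 0.61 (adjusted p = 0.0042), and it also passed without SmoM2 hemisphere replicate 1 (0.049). Its array order was that of the pericyte and smooth muscle mean in 4 of 4 groups.

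Collagen VI forms beaded filaments around cells, and 5 of its 6 listed chains were measured. Col6a3 read 6.62, 6.44 and 6.75 in wild type hemisphere against 6.76, 7.06 and 7.16 in SmoM2 hemisphere, and 6.85, 6.77 and 6.67 in wild type vermis against 6.90, 6.71 and 6.83 in SmoM2 vermis. The hemisphere groups touched without overlapping (6.75 against 6.76) and the vermis groups overlapped. Its difference was 0.39 (SE 0.12, adjusted p = 0.0441) in the hemisphere and 0.05 (SE 0.12, adjusted p = 0.779) in the vermis. The hemisphere call held without wild type hemisphere replicate 3, wild type vermis replicate 1 or 3, or SmoM2 hemisphere replicate 1. It was lost without wild type hemisphere replicate 1 (0.0504) or 2 (0.156), wild type vermis replicate 2 (0.0555), SmoM2 hemisphere replicate 2 (0.119) or 3 (0.169), or SmoM2 vermis replicate 1 (0.0565), 2 (0.0557) or 3 (0.0587), the range over all alternatives being 0.0199 to 0.169. The partner chains Col6a1 (0.17 and -0.01) and Col6a2 (0.00 and -0.08) overlapped between genotypes in both regions, and Col6a4 (-0.22 and -0.44) and Col6a5 (-0.23 and 0.02) did not pass.

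The classes of network-forming, membrane-spanning and remaining collagens held 2 genes that passed, Col10a1 and Col25a1. Col10a1, a marker of enlarging cartilage cells, read 3.57, 3.96 and 3.75 in wild type vermis against 3.52, 3.18 and 3.29 in SmoM2 vermis, values close to the lower quartile of the arrays. The vermis groups did not overlap. It fell by 0.43 (SE 0.12, adjusted p = 0.029) there and differed by -0.16 (SE 0.12, adjusted p = 0.398) in the hemisphere, where the values were 3.88, 3.80 and 3.73 against 3.70, 3.51 and 3.72. The vermis call was lost without wild type vermis replicate 2 (0.125) or 3 (0.0701) or SmoM2 vermis replicate 2 (0.124) or 3 (0.0783), within 0.0157 to 0.125 over the alternatives.

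Col25a1, a membrane-spanning collagen made by neurons, read 5.86, 5.96 and 5.85 in wild type hemisphere against 5.37, 5.52 and 5.44 in SmoM2 hemisphere, and 5.69, 5.98 and 5.91 in wild type vermis against 5.34, 5.34 and 5.66 in SmoM2 vermis. Neither region overlapped, and Col25a1 fell by 0.45 (SE 0.11, adjusted p = 0.0175) in the hemisphere and by 0.41 (SE 0.11, adjusted p = 0.0245) in the vermis. Its other probe set, 1438540_at, moved in the opposite direction, reading 3.25 to 3.51 in wild type hemisphere and 3.71 to 4.21 in SmoM2 hemisphere, and 3.21 to 3.39 and 3.54 to 3.91 in the vermis. That probe set was higher by 0.64 (SE 0.15, adjusted p = 0.0129) in the hemisphere and by 0.41 (SE 0.15, adjusted p = 0.088) in the vermis, so the data give no single direction for Col25a1. With the mean of both probe sets the differences of Col25a1 were 0.10 and 0.00 (adjusted p = 0.506 and 0.986). On the brighter probe set the hemisphere call was lost without wild type hemisphere replicate 2 (0.0625) or SmoM2 hemisphere replicate 1 (0.0731) or 3 (0.0559), while in the vermis it was lost without wild type vermis replicate 2 (0.0972) or 3 (0.0786) or SmoM2 vermis replicate 1 (0.0995) or 2 (0.103), with 0.0116 to 0.506 and 0.0117 to 0.986 over all alternatives.

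The other genes of these classes did not pass in the hemisphere or in the vermis: Col8a1 (-0.17 and -0.16), Col8a2 (0.15 and 0.17), Col13a1 (0.37 and 0.28), Col17a1 (-0.21 and -0.25), Col23a1 (-0.41 and -0.22) and Col7a1 (0.08 and -0.21). For Col23a1 this held on the brightest probe set, while 1429210_at passed as lower in SmoM2 hemisphere among all probe sets. That probe set read at least 5.74 in wild type hemisphere and at most 5.52 in SmoM2 hemisphere, and its vermis groups overlapped. On 1429209_at the hemisphere groups overlapped. Without wild type hemisphere replicate 2 the brightest probe set of Col23a1 passed in the hemisphere (-0.7, adjusted p = 0.0491). Col26a1 had the largest differences among genes that did not pass. Its values were 5.19, 4.50 and 5.04 in wild type hemisphere against 5.08, 5.46 and 5.96 in SmoM2 hemisphere, and 4.94, 4.75 and 5.07 in wild type vermis against 5.38, 5.5 and 5.70 in SmoM2 vermis. The hemisphere groups overlapped and the vermis groups did not. Col26a1 differed by 0.59 (SE 0.21, adjusted p = 0.0688) in the hemisphere and 0.61 (SE 0.21, adjusted p = 0.058) in the vermis. Col26a1 passed there without SmoM2 hemisphere replicate 1 (0.0397) or 3 (0.0336) or wild type hemisphere replicate 1 (0.0422) or 2 (0.037), and its hemisphere difference passed when SmoM2 hemisphere replicate 1 (0.026) or wild type hemisphere replicate 1 (0.0288) was left out.

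Further probe sets bore on several of these results. In the hemisphere 10 of the 15 genes that passed had several probe sets, all of 1 sign in 9 of them and all passing among all probe sets in 5 (Col3a1, Col5a2, Col11a1, Col27a1 and Ddr2). In the vermis 8 of the 13 had several, all of 1 sign in 7 and all passing in 2 (Col11a1 and Col27a1). Col5a1, the partner of Col5a2 in collagen V, did not pass on its brightest probe set, 1434479_at, but did on 1416740_at. That probe set read 5.28, 4.57 and 5.39 in wild type hemisphere against 6.45, 6.69 and 5.95 in SmoM2 hemisphere, and 5.16, 4.89 and 5.29 in wild type vermis against 6.30, 6.39 and 6.26 in SmoM2 vermis. Its groups did not overlap, with differences of 1.28 (SE 0.21, adjusted p = 0.0014) and 1.21 (SE 0.21, adjusted p = 0.00217), while 1416741_at gave -0.07 and 0.03. Where in the transcript each probe set lies was not analysed here.

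**Figure D4:**
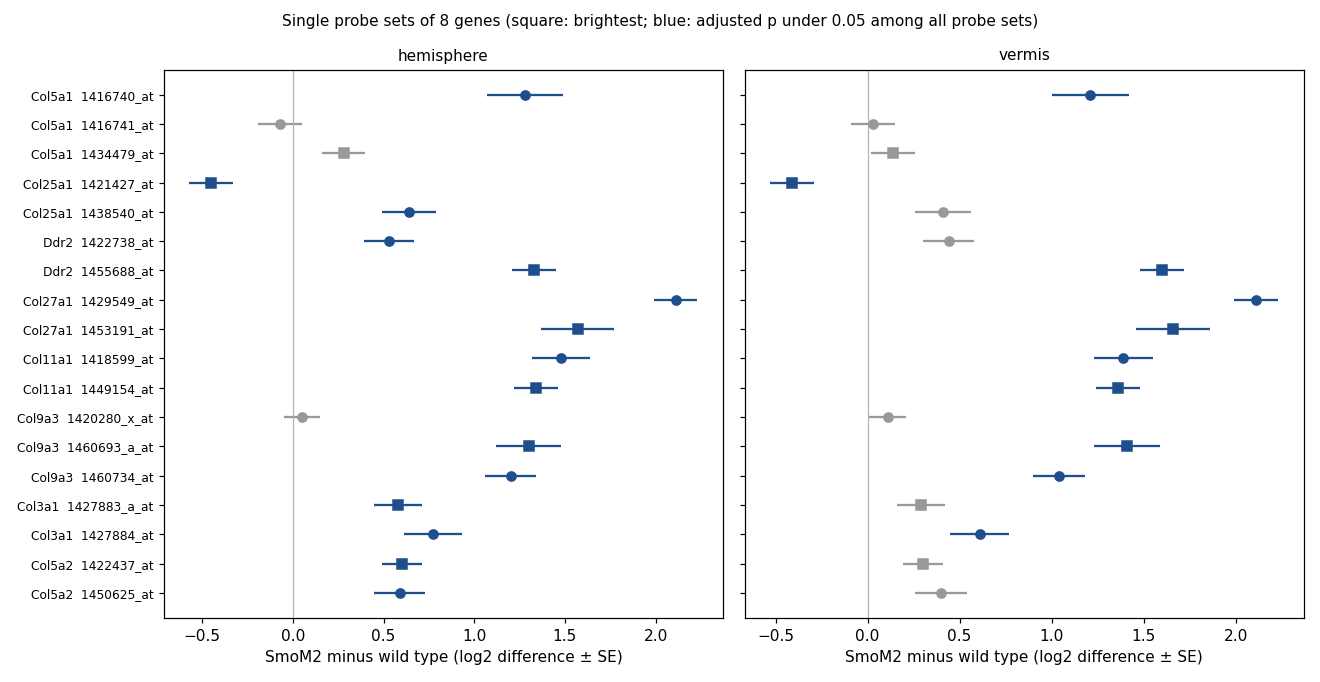
SmoM2 minus wild type for each probe set of 8 genes in the hemisphere (left) and vermis (right), in log2 units with bars of 1 standard error; squares are the brightest probe set of a gene and blue marks an adjusted p under 0.05 among all probe sets. Both probe sets of Col27a1 and Col11a1 lie to the right of 0 in both regions, those of Col25a1 lie on opposite sides (-0.45 and 0.64 in the hemisphere), and 1 of 3 for Col5a1 stands apart at 1.28 and 1.21.

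Between regions few of the 44 genes passed. In wild type 1 of 44 did (2.27%), Ddr2, higher in the hemisphere by 0.69 (SE 0.12, 1.61-fold, adjusted p = 0.039), against 0.187% of all genes passing and 0.0385% passing as higher in the hemisphere. Its hemisphere arrays (7.32, 7.16 and 6.90) were all above its vermis arrays (6.42, 6.62 and 6.27). With the replicate number as a block within each genotype the adjusted p was 0.0343. The call held without wild type hemisphere replicate 3 and was lost without any other array. Leaving out wild type hemisphere replicate 1 or 2 gave 0.0738 or 0.204, and wild type vermis replicate 1, 2 or 3 gave 0.122, 0.0667 or 0.149. For SmoM2 hemisphere replicate 1, 2 or 3 it was 0.0588, 0.0605 or 0.0691, and for SmoM2 vermis replicate 1, 2 or 3 it was 0.0653, 0.0615 or 0.0636. Over all alternatives it ran from 0.0247 to 0.309. The second Ddr2 probe set gave 0.21 (SE 0.14, adjusted p = 0.962).

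At an unadjusted p under 0.05, 9 of the 44 genes (20.5%) differed between the wild type regions, against 6.32% of all genes, and the same 9 did not overlap (background 8.77%). Both chains of collagen I were among them, lower in the hemisphere: Col1a1 read 6.75, 6.28 and 6.93 there and 7.37, 7.22 and 7.33 in the vermis, and Col1a2 is given above. The differences were -0.65 (SE 0.15, adjusted p = 0.153) for Col1a1 and -0.51 (SE 0.14, adjusted p = 0.273) for Col1a2, and both missed the threshold. With the replicate block within genotype these adjusted p were 0.0569 and 0.0962. Besides Ddr2, the other 6 gave differences of 0.51 for Col9a1 (adjusted p = 0.323), 0.44 for Col14a1 (0.582), 0.34 for Col18a1 (0.722), -0.28 for Col11a1 (0.748), -0.39 for Col13a1 (0.703) and -0.35 for Col8a2 (0.673), without passing.

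In SmoM2, 0 of the 44 genes passed between the regions in limma, against 0.0605% of all genes, and 8 of 44 (18.2%) had an unadjusted p under 0.05, against 3.63%. Ddr2 again read higher in the hemisphere, 8.55, 8.34 and 8.48 against 8.04, 8.06 and 8.02, a difference of 0.42 (SE 0.12, adjusted p = 0.715). Col18a1 differed by 0.49 (SE 0.14, adjusted p = 0.715), with 8.09, 8.4 and 8.4 in the hemisphere against 7.73, 7.83 and 7.86 in the vermis. Neither gene overlapped between the regions. For the test of whether the SmoM2 difference itself depended on region, limma passed 0 of 44 and 0 of all genes, and 3 of 44 (6.82%) had an unadjusted p under 0.05 against 3.1% of all genes. These were Col1a1 (0.47), Col9a1 (-0.66) and Col14a1 (-0.50).

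Proteins that make, bind and cut collagen were followed as lists beside the collagens, and their counts are to be read against the shares over all genes (7.62% higher and 7.18% lower in the hemisphere, 7.56% and 9.46% in the vermis). Of 21 measured genes that modify, fold and process collagen chains, 3 were higher and 3 lower in SmoM2 hemisphere, and 3 higher and 1 lower in SmoM2 vermis. Plod2, which hydroxylates lysines used for cross-links, read 8.05, 7.90 and 7.46 in wild type hemisphere against 8.57, 8.43 and 8.80 in SmoM2 hemisphere, and 7.94, 8.07 and 7.81 in wild type vermis against 8.53, 8.59 and 8.70 in SmoM2 vermis. It did not overlap, and was higher by 0.79 (SE 0.15, adjusted p = 0.00216) and 0.67 (SE 0.15, adjusted p = 0.00692). Ppib, a proline isomerase that folds collagen chains, was lower on all SmoM2 arrays (11.83 to 12.05) than on all wild type arrays (12.46 to 12.63), by -0.58 (adjusted p = 0.000743) and -0.61 (adjusted p = 0.00047). Tll1, a protease that trims procollagen, was higher in SmoM2 vermis by 1.31 (SE 0.18, 2.48-fold, adjusted p = 0.000171) and differed by 0.47 in the hemisphere (adjusted p = 0.093). The hemisphere count of higher genes fell to 1 without wild type hemisphere replicate 2 or SmoM2 hemisphere replicate 2, and rose to 5 if wild type hemisphere replicate 1 was left out, and the count of lower genes was 1 or 2 without any 1 array. P3h2, a prolyl hydroxylase, gave 0.68 (adjusted p = 0.0199) in the hemisphere, a call lost without wild type hemisphere replicate 2 (0.0789) or SmoM2 hemisphere replicate 1 (0.0617) or 2 (0.0836), and 0.24 (adjusted p = 0.366) in the vermis.

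Of 4 measured cross-linking enzymes, Loxl1 stood out. It read 6.93, 6.21 and 6.92 in wild type hemisphere against 8.55, 8.77 and 8.61 in SmoM2 hemisphere, and 6.88, 6.35 and 6.89 in wild type vermis against 8.27, 8.54 and 8.35 in SmoM2 vermis. Every SmoM2 array was more than 1 log2 unit above every wild type array. The difference was 1.95 (SE 0.19, 3.88-fold, adjusted p = 7.64e-06) in the hemisphere and 1.68 (SE 0.19, 3.2-fold, adjusted p = 3.14e-05) in the vermis, and both calls held without each array in turn. Its relative Lox differed by -0.60 (SE 0.16, adjusted p = 0.0253) in the hemisphere, a call lost without wild type hemisphere replicate 2 (0.0882) or 3 (0.0652) or SmoM2 hemisphere replicate 1 (0.0604) or 2 (0.0998), and by -0.44 (SE 0.16, adjusted p = 0.0799) in the vermis.

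Among 13 collagen-binding matrix proteins 1 was higher, a share at that of all genes, and 3 were lower in each region. Ogn, a small leucine-rich proteoglycan, read 6.09, 5.72 and 5.17 in wild type hemisphere against 3.46, 3.50 and 3.40 in SmoM2 hemisphere, and 4.77, 5.37 and 4.67 in wild type vermis against 3.45, 3.28 and 3.27 in SmoM2 vermis, where it lay near the lower quartile. Its groups were far apart, by -2.21 (SE 0.20, 4.61-fold, adjusted p = 5.39e-06) and -1.6 (SE 0.20, 3.04-fold, adjusted p = 0.000101). Tnxb, tenascin X of loose connective tissue, differed by -0.64 (SE 0.12, adjusted p = 0.00234) and -0.96 (SE 0.12, adjusted p = 7.98e-05), while lumican, Lum, was higher by 0.55 (SE 0.15, adjusted p = 0.0215) and 0.69 (SE 0.15, adjusted p = 0.00555). The hemisphere call of Lum was lost without wild type hemisphere replicate 2 (0.0796) or 3 (0.0735) or SmoM2 hemisphere replicate 2 (0.0733) or 3 (0.103). Decorin, Dcn, differed by -0.50 (adjusted p = 0.0224) in the hemisphere, lost without wild type hemisphere replicate 2 (0.0845) or SmoM2 hemisphere replicate 1 (0.108), and by -0.38 (adjusted p = 0.07) in the vermis.

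Among 12 measured proteases and inhibitors 2 were higher and 1 was lower in the hemisphere, and 2 were higher and 2 lower in the vermis. The lower count in the hemisphere is near the share over all genes, and the other counts are above it but rest on few genes. Mmp14, a membrane-bound collagenase, read 7.54, 6.83 and 6.97 in wild type hemisphere against 8.39, 8.25 and 8.26 in SmoM2 hemisphere, and 7.55, 7.21 and 7.44 in wild type vermis against 8.22, 8.13 and 8.18 in SmoM2 vermis. It did not overlap, with differences of 1.18 (SE 0.15, 2.27-fold, adjusted p = 0.000133) and 0.78 (SE 0.15, 1.71-fold, adjusted p = 0.00378). Mmp2, the gelatinase that Mmp14 activates, was higher by 0.64 (SE 0.12, adjusted p = 0.00305) and 0.70 (SE 0.12, adjusted p = 0.00146). Timp2, an inhibitor of both, was lower by -0.79 (SE 0.20, adjusted p = 0.0159) and -0.92 (SE 0.20, adjusted p = 0.00633), and its hemisphere call was lost without wild type hemisphere replicate 3 (0.0572) or SmoM2 hemisphere replicate 1 (0.0716). Timp3 gave -0.23 (adjusted p = 0.139) and -0.34 (adjusted p = 0.0331), the vermis call being lost without wild type vermis replicate 1 (0.0528), 2 (0.113) or 3 (0.0582) or SmoM2 vermis replicate 2 (0.123) or 3 (0.0814). Of 8 measured further collagen receptors (integrin chains, Gp6 and Lair1 among them) 0 passed in the hemisphere in limma. Lair1 was lower in the vermis by -0.39 (SE 0.11, adjusted p = 0.0306). Its vermis values of 2.78 to 3.31 were all under the lower quartile of their own array. Itgb1, the beta chain that collagen-binding integrins share, gave 0.27 (adjusted p = 0.0526) and 0.20 (adjusted p = 0.129). The Lair1 call was lost without any of the 3 wild type vermis arrays (0.0555, 0.072 and 0.0827) or SmoM2 vermis replicate 2 (0.0962) or 3 (0.106).

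**Figure D5:**
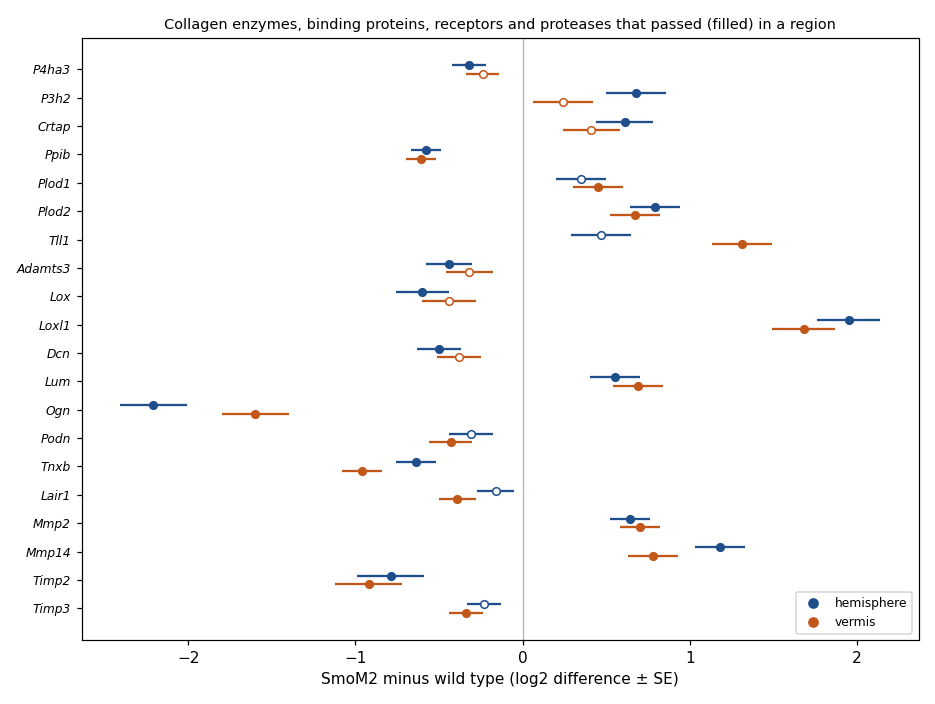
SmoM2 minus wild type in log2 units, with bars of 1 standard error, for the collagen-modifying, cross-linking, binding, receptor and protease genes that passed in at least 1 region; blue is the hemisphere, orange the vermis, and filled points passed. Loxl1 (1.95 and 1.68) and Mmp14 (1.18 and 0.78) lie on the right, Ogn (-2.21 and -1.6) and Tnxb (-0.64 and -0.96) on the left.

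Markers of other cells that make collagen in the brain gave more lower than higher calls in SmoM2, against 7.18% lower over all genes in the hemisphere and 9.46% in the vermis. Most endothelial and pericyte markers did not pass, and their median difference in the hemisphere was 0.02 and -0.05. In bulk samples fewer cells of a type and less RNA per cell cannot be told apart. Of 15 markers of meningeal and perivascular fibroblasts, 3 were higher and 8 lower in SmoM2 hemisphere, and 2 higher and 6 lower in SmoM2 vermis, and the list holds Dcn, Lum and Ogn, which are also on the collagen-binding list. Their log2 values summed to 98.6 to 103.1 in wild type hemisphere, 93.9 to 96.9 in SmoM2 hemisphere, 97.2 to 100.5 in wild type vermis and 93.3 to 96.1 in SmoM2 vermis, without overlap between genotypes. Ptgds, abundant in meninges, was lower by -1.38 (SE 0.24, adjusted p = 0.00145) and -1.28 (SE 0.24, adjusted p = 0.00237), while Fbln1 was higher by 0.71 (SE 0.14, adjusted p = 0.00364) and 0.93 (SE 0.14, adjusted p = 0.000411). Gjb6, a gap junction protein, was lower by -1.14 (adjusted p = 0.00218) and -0.92 (adjusted p = 0.00824). The count of lower fibroblast markers was 4 without SmoM2 hemisphere replicate 1 in the hemisphere, and 4 without SmoM2 vermis replicate 2 and 8 without wild type vermis replicate 3 in the vermis. Of 10 endothelial markers 1 was lower in the hemisphere and 4 in the vermis, where the sums were 59.9 to 61.9 in wild type and 51.9 to 56.5 in SmoM2. That vermis count was 1 without wild type vermis replicate 2 or 3 or SmoM2 vermis replicate 1, and 7 without wild type hemisphere replicate 3. Of 10 pericyte and smooth muscle markers 1 was lower in the hemisphere and 2 in the vermis (sums 64.8 to 67.6 and 60.3 to 64.2). The transporter Slco1a4 was the endothelial gene lower in both regions (-1.27 and -1.56), and vitronectin, Vtn, the pericyte gene lower in both (-0.81 and -1.11).

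Among glial lists, 7 of 8 oligodendrocyte markers were lower in both regions, with sums of 73.5 to 73.9 against 61.5 to 66.4 in the hemisphere and 75.7 to 79.5 against 63.4 to 67.5 in the vermis. Of 9 microglia and macrophage markers 4 were lower in the hemisphere (45.9 to 50.6 against 42.4 to 44) and 6 in the vermis (49.0 to 51.1 against 42.7 to 46.0). The microglia count in the hemisphere was 7 if wild type hemisphere replicate 3 was left out, and in the vermis it was 1 without SmoM2 vermis replicate 3, and Itgam lay under the lower quartile on all arrays. Of 10 astroglia and Bergmann glia markers, 2 were higher and 3 lower in the hemisphere (89.7 to 94 against 86.2 to 91.5), and 2 higher and 2 lower in the vermis (91.8 to 95.2 against 89.5 to 93.6). Leaving out SmoM2 hemisphere replicate 1 took the lower astroglial count to 0 in the hemisphere, and leaving out wild type vermis replicate 3 or SmoM2 vermis replicate 2 took it to 0 in the vermis. The summed fibroblast, oligodendrocyte and microglia markers were thus lower on every SmoM2 array than on the wild type arrays of the same region, in which Col9a2, Col9a3, Col11a1, Col15a1, Col27a1 and Ddr2 were higher in SmoM2. In the vermis, but not in the hemisphere, the summed endothelial and pericyte markers were also lower on every SmoM2 array. The part of these cells in the values of any collagen, the lower Col1a2, Col11a2, Col16a1 and Col20a1 included, was not tested.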

How the data were processed

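RNA of 12 pools of granule cell progenitors was hybridised to Affymetrix whole-genome mouse arrays, 3 per group. The deposited values are log2 signals per probe set that the authors made with RMA in Partek, per the submitters' processing notes; their versions and any filters: not given in the sources used here. This method brings the arrays close to 1 distribution, so a shift of all genes together would largely be removed. The deposited values still differed: the lower quartile was 3.31 to 3.42 on wild type arrays and 3.24 to 3.29 on SmoM2 arrays. Quantile normalization again changed the hemisphere calls over all genes from 1387 higher and 1307 lower to 1076 higher and 1538 lower. The precision is limited by the number of arrays, and p-values measure the spread between these pools.

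Of 45101 probe sets, 64 controls were left out and 34945 had 1 gene symbol, updated through the gene identifier, which gave 18193 genes; the brightest probe set over all 12 arrays stood for a gene. Differences were tested with limma 3.58.1 (R 4.3.3): 1 model with 4 group means, 8 residual degrees of freedom, empirical Bayes moderation, 5 contrasts, two-sided, Benjamini-Hochberg adjustment over all genes within a contrast, threshold 0.05. Adjusted p in the text come from this model unless the sentence names a left-out array, a replicate block, a mean of probe sets or another setting, for which it was refitted. Probe sets were also tested singly, with adjustment over all probe sets. The scripts were tested on simulated data. The groups came from the sample labels.

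The sources used here do not say whether same-numbered hemisphere and vermis arrays of a genotype come from the same pool. Deviations from the group means correlated at 0.14 to 0.53 for the 6 same-numbered pairs within a genotype. For the 12 same-numbered pairs across genotypes they correlated at -0.22 to 0.28. These ranges overlap and pairs with different numbers were not set beside them, so pairing was not established. The alternatives were renormalization, centring, a filter on dim genes, the mean of probe sets, trended and robust moderation, only the groups compared, the replicate block and leaving out each array.

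The members and lists were chosen with earlier results of these data known. Named with values are each member that passed in any contrast, both receptors, the 12 members of highest mean level, and up to 4 genes of each list by smallest p. The 5 related lists cover modification, cross-linking, binding, other receptors, and proteases with inhibitors; 7 marker lists cover fibroblasts, endothelium, pericytes, astroglia, oligodendrocytes, microglia and granule cell progenitors. Motifs were searched in the 250 bases before each RefSeq start (GRCm38.p6).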

Additional observations from a re-analysis of the deposited data

How the results depend on the processing

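The differences of single genes were recomputed under each alternative. Outside the leave-outs, 1476 stayed on the same side of the threshold, 16 passed newly, 15 no longer passed and 1 that had passed reversed. With the mean of its probe sets that gene, Col25a1, gave 0.1 in the hemisphere. In the leave-outs 2561 stayed on the same side, 18 passed newly and 61 no longer passed. Differences that passed in neither setting were counted by the threshold only, and some changed sign. Col1a1 in the hemisphere, for example, ran from -0.04 to 0.28 over all alternatives. Between wild type regions, collagen and receptor genes higher in the hemisphere numbered 1, against 0 with the mean of probe sets or with only the groups compared, and 0 to 1 without each array, and 1 gene, Col1a1, was lower with the replicate block, against 0. All genes called there numbered 34, against 21 with only genes above the median mean level, 3 with only the groups compared and 8 to 58 without each array. In the hemisphere 4 of the 44 genes were lower in SmoM2, against 1 with brighter genes only, where 20 of the 44 were tested, and 2 to 5 without each array; higher genes ran from 8 to 14. All genes called numbered 2694, against 1753 with only the groups compared and 1633 to 4277 without each array. In the vermis 6 were lower, against 2 with brighter genes only and 0 to 7 without each array; higher genes ran from 6 to 9, and all calls, 3096, from 1756 to 3828. Between SmoM2 regions 11 genes were called, against 6 with brighter genes only and 2 to 18 without each array. The interaction gave 0, and 0 to 1 without each array. The replicate block within each genotype, where pairing was not established, gave 1 higher and 0 lower of the 44 genes between wild type regions. That setting gave 49 calls there and 15 calls between SmoM2 regions. With the block over both genotypes, which share only a number, 13 of the 44 were higher and 4 lower in the hemisphere (3254 calls). In the vermis that block gave 8 higher and 6 lower (3745 calls). Of all called genes in the hemisphere 51.5% were higher, against 41.2% after quantile normalization again and 61.3% among brighter genes; in the vermis 44.4% were, against 59.3% among brighter genes. The cause of these changes was not tested, except that the filter on dim genes tests fewer genes and the leave-outs use fewer arrays. Signal limits what can be said of Col6a5, Col17a1 and Col24a1, which were under the lower quartile throughout.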
